A study of Mus musculus with 12 samples.

Results

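The transcripts described here are those that the array lists under a UCSC known-gene accession, a name that starts with uc followed by a digit. They were chosen by that accession alone and not by any measured value. Of the 37246 probes used, 5221 met the rule, and each belonged to an accession of its own. The other large classes on the array were 22522 mRNA probes and 7754 probes of cDNA clones with AK accessions, and both are used below for comparison. The cells were C2C12, a mouse myoblast line that grows without limit in culture. Proliferating cells were grown in DMEM with 10% fetal bovine serum to 80 to 90% confluence, and the other groups were then held in 2% horse serum for 2, 5 or 8 days. Each of the 4 stages had 3 arrays, and each array received Cy3-labelled RNA amplified from 1 µg of total RNA on a custom Agilent array with a single dye. The labels record independent experiments but do not say how far the cultures were separate, so a p-value here reflects only how these arrays vary, which may be technical.

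UCSC known genes are an automated set of gene models that rest on transcripts and proteins in public databases, and the set holds both coding and non-coding transcripts. Long non-coding RNAs are transcripts without a known protein product, and some of them act in muscle differentiation. C2C12 myoblasts leave the cell cycle when serum is lowered, switch on muscle genes and fuse into myotubes. The labels give the profiling of long non-coding RNAs as the aim, but nothing in the sources used here shows for each uc transcript that it is non-coding. Of the 5221 accessions, 0 matched the tables of gene names, promoters and miRNAs used here, so the transcripts carry no gene name, position or sequence below and no role can be given for them.

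A signal below is the scanner's processed intensity, scaled so that the 75th percentile of every array equals 1582, the geometric mean of the 12 arrays' percentiles. Levels are not compared between probes, since probes differ in how strongly they bind. The labelled cell type was checked first: 9 of 10 myoblast and muscle markers were well above background on all 12 arrays, and creatine kinase M (Ckm), a muscle enzyme that appears with differentiation, was so on 1 of 3 proliferation arrays and on every later one. Of the markers of other cell types, the probes for Adgre1 (macrophage), Adipoq and Plin1 (adipocyte) and Alpl (osteoblast) were above background on no array. Of the lists' members on the array, 1 of 5 macrophage, 1 of 4 endothelial, 1 of 4 adipocyte, 2 of 4 neural and 2 of 4 osteoblast probes were above it on all 12. The summed signal of the endothelial list ran from 338 to 465 at proliferation, 1240 to 1690 at day 2, 1080 to 1380 at day 5 and 763 to 980 at day 8. That of the neural list ran from 26000 to 43300, 58200 to 72200, 13500 to 17100 and 9620 to 11900 in the same order, and that of the adipocyte list from 6110 to 8000, 3370 to 4390, 2160 to 2270 and 2290 to 2550. The macrophage list ran from 140 to 283, 182 to 231, 210 to 237 and 275 to 363, and the osteoblast list from 1800 to 4310, 1650 to 2210, 975 to 1940 and 1100 to 1590. A sum follows its brightest probes, and endothelial and macrophage members moved both ways from proliferation to day 8. Tek went from 217 to 857, but Kdr from 84.6 to 9.36, Cdh5 from 57.8 to 12.9 and Pecam1 from 13.7 to 9.88. Csf1r (102 to 250) and Aif1 (16.5 to 48.7) were higher, and Tyrobp (51.5 to 4.31), Ptprc (17.2 to 4.02) and Adgre1 (3.69 to 2.24) lower. The part of such differences in the results was not tested.

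The 12 arrays lay on 3 slides, each scanned as a unit, and the slides ran along the time course. Slide 1 held the 3 proliferation arrays and day 2 array 1, slide 2 held day 2 arrays 2 and 3 with day 5 arrays 1 and 2, and slide 3 held day 5 array 3 with the 3 day 8 arrays. Days 5 and 8 therefore shared no slide with proliferation. Day 5 array 3 stood apart from the other day 5 arrays in detection. On that array 37.1% of the uc probes sat at the lowest signal of the array, as did 35.5% on proliferation array 1 and 21.4% on day 5 array 1, against at most 1 probe on any other. No uc spot was saturated. Across the tested uc probes, correlations of log2 signals ran from 0.979 to 0.991 for pairs of arrays within a stage and from 0.928 to 0.982 for other pairs.

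About as many uc transcripts were well above background as not. By the scanner's other flag, for a positive and significant signal, 62.9% to 78.6% of uc probes per array were detected. Here a probe was counted as detected on an array when the scanner's flag called it well above background. That share was 46.3%, 47.4% and 56.4% on the proliferation arrays, 49.7%, 59.7% and 57.7% on the day 2 arrays, 60.5%, 60.2% and 45.4% on the day 5 arrays and 48.9%, 53.2% and 50.5% on the day 8 arrays. All 4 stages overlapped. An exact permutation test of the stage labels gave p = 0.508 (adjusted 0.512 over 4 such tests), and the same test of the slide labels gave p = 0.00779 (adjusted 0.0104). The 4 arrays of slide 2 were the 4 highest, at 57.7% to 60.5%. The part of the slide in the detection of single transcripts was not tested. The median normalized log2 signal over all uc probes gave p = 0.0427 for the stages (exact permutation test, adjusted 0.171, with the unadjusted p at 0.00935 to 0.0759 when 1 array was left out) and p = 0.00294 for the slides (adjusted 0.01).

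**Figure D1:**
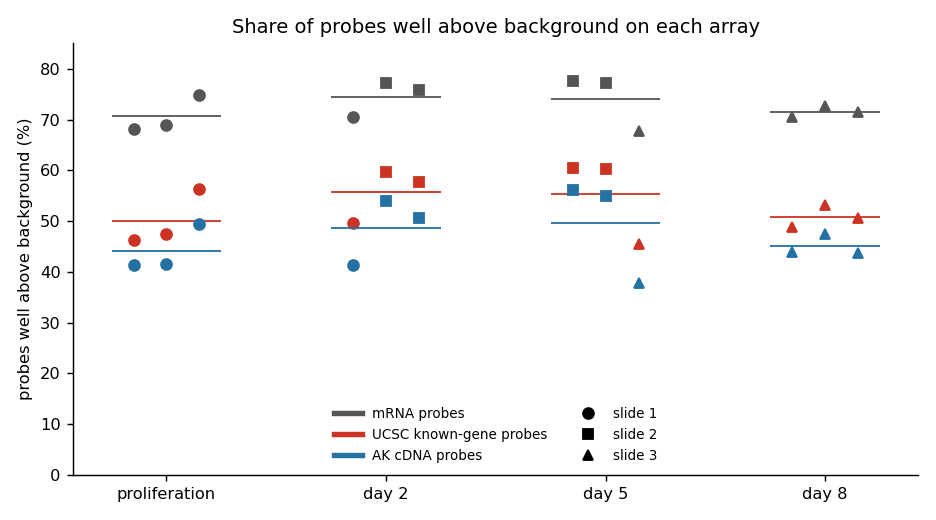
Share of probes well above background (y axis, percent) on each of the 12 arrays, by stage (x axis). Colour gives the probe class, symbol shape the slide, and the horizontal line the mean of 3 arrays. The uc probes (red) ran from 45.4% to 60.5%, between the mRNA probes above (67.8% to 77.5%) and the AK probes below (37.8% to 56.1%), and the squares of slide 2 were the highest uc values.

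On every array the uc probes were detected less often than mRNA probes and more often than AK probes. The uc share lay between 45.4% and 60.5%, the mRNA share between 67.8% and 77.5% and the AK share between 37.8% and 56.1%. The difference between the uc and mRNA shares did not pass an exact permutation test over the stages (p = 0.496, adjusted 0.512), nor did that between uc and AK shares (p = 0.512, adjusted 0.512). Over the slides the first gave p = 0.00502 (adjusted 0.01) and the second p = 0.594 (exact permutation tests). When 1 common level of scaled signal, 24.6, replaced the scanner's flag, the uc share ran from 40.9% to 47.2% (stages p = 0.0521, exact permutation test; level chosen after the data were seen).

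Most detected uc transcripts were detected throughout. Of the 5221 probes, 2046 (39.2%) were well above background on all 12 arrays, 1315 (25.2%) on none, and 1248 (23.9%) on some arrays but never on all 3 of a stage. The corresponding shares were 63.2%, 13.9% and 13.8% of mRNA probes and 32.1%, 29.6% and 26.1% of AK probes. Detection restricted to part of the time course was rare. Probes were counted here when detected on all arrays of the named stages and on no other array. At days 2, 5 and 8, 9 uc transcripts were seen (0.172%, beside 0.126% of all probes), and 11 at days 5 and 8 (0.211%, beside 0.161%). Day 8 alone had 2 (0.0383%, beside 0.0242%) and day 5 alone 1 (0.0192%, beside 0.0134%). Proliferation with day 2 had 2 (0.0383%, beside 0.0698%). No uc transcript was seen at proliferation alone or at day 2 alone, beside 0.0311% of mRNA probes and 0.0242% of all probes in either case. Counts this small cannot show a difference between the classes.

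To enter the tests, a probe had to be detected on each of the 3 arrays of some stage. That left 2658 uc probes (50.9% of them), 3433 AK probes (44.3%) and 16265 mRNA probes (72.2%) among 22955 in all. A probe detected in a single stage passed this filter through the stage in which it was high, so shares of changed probes describe the tested probes and not all 5221 members. A change was called at an adjusted p below 0.05, Benjamini-Hochberg over the 22955 probes, in 1 limma fit of the 4 stage means. In bulk RNA, a change in the share of cells that hold a transcript and a change per cell cannot be told apart.

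Most tested uc transcripts changed over the time course. The F test over the 4 stages called 1638 of 2658 (61.6%), beside 65.8% of all tested probes, 68.7% of mRNA probes and 56.8% of AK probes. With the slide as a block it called 739 uc probes (27.8%), beside 31.5% of all. Under the block each step between neighbouring stages is measured within 1 slide: 1 day 2 array against 3 proliferation arrays, 2 day 5 against 2 day 2 arrays, and 3 day 8 arrays against 1 day 5 array. How much of the lower counts comes from the slide and how much from the fewer arrays each step then rests on was not tested.

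Changes were called from day 2, and their number rose to day 8. It did not with the slide as a block, or when non-uniform spots were left out of the scaling too. At day 2, 441 uc transcripts were higher than at proliferation (16.6% of those tested, beside 18.5% of all tested probes) and 268 were lower (10.1%, beside 12.2%). At day 5, 583 were higher (21.9%, beside 23.7%) and 592 lower (22.3%, beside 23.9%). At day 8, 618 were higher (23.3%, beside 25.5%) and 784 lower (29.5%, beside 29.3%). Counting both directions, 30.7%, 47.6% and 54.8% of all tested probes were called at the 3 days. These comparisons share the proliferation arrays. At least 2-fold calls numbered 155 higher and 121 lower at day 2 (5.99% and 4.91% of all probes), 308 and 339 at day 5 (12.4% and 13.3%) and 349 and 478 at day 8 (13.5% and 17.9%). Without non-uniform spots the calls in both directions fell in number from day 5 to day 8, from 938 to 812. With the same spots left out but the percentile from all spots, they rose from 414 at day 2 to 756 at day 5 and 972 at day 8. Both settings tested 2196 uc probes. With the slide block 381 were called at day 2, 523 at day 5 and 386 at day 8. By direction the block counts were 247 higher and 134 lower at day 2 (9.61% and 5.79% of all probes), 298 and 225 at day 5 (12.4% and 10.3%) and 237 and 149 at day 8 (9.74% and 7.65%). Of the 709 transcripts called at day 2, 323 were called in the same direction with the block, as were 482 of 1175 at day 5 and 344 of 1402 at day 8.

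Between neighbouring stages the middle step held more calls than the last. From day 2 to day 5, 315 uc transcripts rose (11.9%, beside 14.3% of all tested probes) and 395 fell (14.9%, beside 15.8%). From day 5 to day 8, 116 rose (4.36%, beside 5.92%) and 148 fell (5.57%, beside 6.6%). In both directions together, 30.1% and 12.5% of all probes were called in these steps. At least 2-fold calls numbered 155 and 188 in the middle step (6.98% and 7.92% of all) and 37 and 71 in the last (1.76% and 2.98%). With the slide block the middle step gave 223 and 262 (10.6% and 11.5% of all), and the last step 52 and 30 (1.92% and 1.32%). Of the 710 calls of the middle step 459 were called in the same direction with the block, and 45 of the 264 of the last step. The last step moved with each day 5 and day 8 array. Its 264 calls were 95 without day 5 array 1, 147 without day 5 array 2 and 512 without day 5 array 3, and of the 264 these kept 89, 130 and 202. Without day 8 array 1, 2 or 3 they were 121, 150 and 153. The falls among them were 44 without day 5 array 1 and 421 without day 5 array 3, in place of 148. The filter on detection was applied anew in each of these fits. Without day 5 array 1, 2 or 3 it passed 2660, 2661 and 3049 uc probes, in place of 2658. Calls over all tested probes were not counted in these fits.

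**Figure D2:**
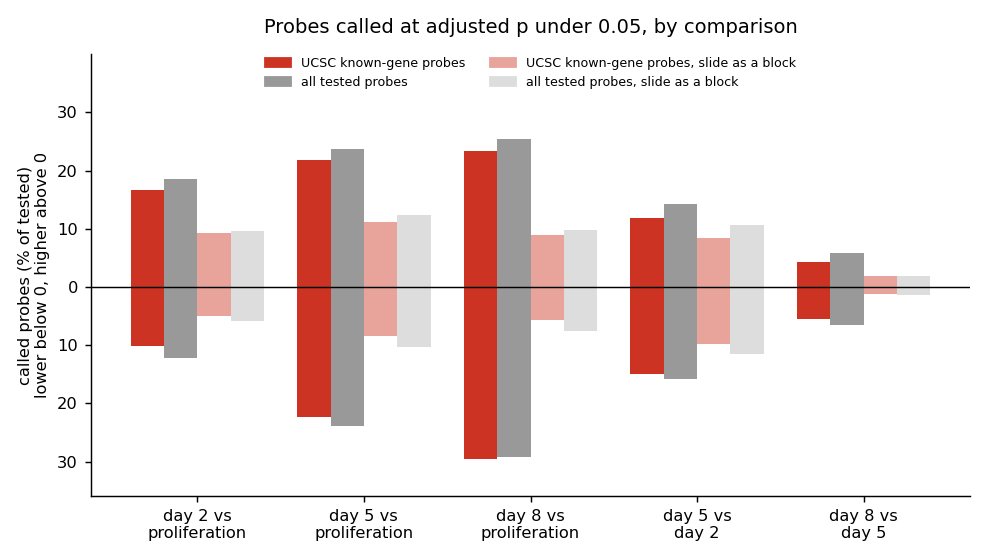
Probes called at an adjusted p below 0.05 as a percent of those tested (y axis; higher above 0, lower below 0) in 5 comparisons (x axis). Dark bars show uc probes (red) and all tested probes (grey), and pale bars the same with the slide as a block. The dark uc bars reach 23.3% higher and 29.5% lower at day 8, the pale ones 8.92% and 5.61%.

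The split between higher and lower calls depended on how the arrays were scaled. Over all tested probes, the higher share of the main calls was 60.2% at day 2, 49.9% at day 5 and 46.5% at day 8. It was 47.5% from day 2 to day 5 and 47.3% from day 5 to day 8. The uc shares of the main fit were near these. Of the uc calls at day 2, 62.2% were higher, and this share was 78.3% with normexp background correction, 97.4% when spots flagged as non-uniform were left out and 52.1% when the percentile was taken over probes detected on all arrays. At day 5 it was 49.6%, against 65.6% with normexp and 91.4% without non-uniform spots. At day 8 it was 44.1%, against 54.3% with quantile normalization, 67% with normexp, 79.7% without non-uniform spots and 61.4% with the slide block. From day 2 to day 5 it was 44.4%, and 57.9% without non-uniform spots. From day 5 to day 8 it was 43.9%, against 54.1% with quantile normalization, 63.4% with the slide block, 58% with normexp and 25.4% when non-uniform spots were left out. Normexp moved the median change of all tested probes at day 2 from 0.07 to 0.20 on the log2 scale, and leaving out non-uniform spots moved it to 0.74. When the same spots were left out but the percentile came from all spots, the shares were 67.6%, 50.9%, 45.2%, 43.4% and 46.2% in that order.

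The median sizes of the uc changes were close to those of the whole array. The median absolute log2 change of tested uc probes was 0.42 at day 2, 0.57 at day 5 and 0.68 at day 8, beside 0.42, 0.56 and 0.65 over all tested probes. Among called transcripts the median was 1.79-fold up and 1.89-fold down at day 2, and 2.13-fold up and 2.21-fold down at day 8. At least 4-fold changes among the calls of the 2658 uc probes numbered 14 up and 8 down at day 2, 96 and 77 at day 5 and 104 and 134 at day 8. Over all 22955 tested probes they numbered 194 and 110, 967 and 906, and 1150 and 1307 in the same order. No uc transcript passed 10-fold at day 2, 38 did at day 5 and 54 at day 8, beside 24, 493 and 694 of all tested probes. At each of these days this was a smaller share of the uc probes than of all, by a difference that was not tested.

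The 2 largest rises by day 8 were called at day 2 and again from day 2 to day 5, with no call after it. The transcript uc009use had signals of 236, 361 and 311 on the proliferation arrays, 940, 1110 and 780 at day 2, 20000, 30300 and 21400 at day 5 and 32300, 38400 and 30900 at day 8. The arrays of days 5 and 8 lay far above all earlier ones, and no day 2 array fell as low as a proliferation array. It rose by 6.82 ± 0.21 (log2, SE, n = 3 arrays per stage) or 113-fold by day 8 (adjusted p = 2.81e-09), and its change from day 5 to day 8 was 0.52 ± 0.21 (adjusted p = 0.136). The transcript uc009sqw went from 76.6, 81.6 and 75.2 through 349, 470 and 254 to 7480, 9790 and 7920 at day 5, a rise by 6.74 ± 0.20 (log2, adjusted p = 2.56e-09), and stood at 6600, 6440 and 6610 at day 8. The day 5 and day 8 ranges did not overlap, but the difference of -0.35 ± 0.20 had no call (adjusted p = 0.27). None of the 22 alternative settings, the slide block among them, lost the called rises of either transcript at day 5 or day 8.

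Other rises had no call at day 2 and a large step to day 5. The transcript uc007cud had signals of 33.6, 59.5 and 15.9 at proliferation and 39.5, 36.9 and 22.6 at day 2, ranges that overlapped (0.02 ± 0.39, adjusted p = 0.978). At day 5 it stood at 1670, 1860 and 1750, 54.9-fold above day 2 (5.78 ± 0.39, adjusted p = 1.56e-06), and at day 8 at 2350, 2890 and 2670. The transcript uc008ezd read 49.6, 84.7 and 31.1 at proliferation, 86.9, 80.6 and 69.6 at day 2, 1300, 1150 and 1620 at day 5 and 1340, 1370 and 1330 at day 8. Its day 2 values overlapped those of proliferation, and the change of 0.63 ± 0.29 (1.55-fold, log2 0.78 within slide 1) had no call (adjusted p = 0.125). Its step from day 2 to day 5 was 17-fold (4.09 ± 0.29, adjusted p = 2.44e-06), and its day 5 and day 8 values overlapped. The steps of both from day 2 to day 5 kept their calls with the slide block and in every other alternative in which they were tested.

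The 3 largest rises of day 2 itself, among called transcripts detected on all 6 arrays whose stages did not overlap, ran from 4.6-fold (uc008bsv) to 5.82-fold (uc008xvv), with uc008kka between them. The transcript uc008xvv went from 27.3, 35.2 and 36 to 165, 231 and 179 (2.54 ± 0.16, 5.82-fold, adjusted p = 1.06e-05) and on to 607, 652 and 679 at day 5 and 890, 802 and 968 at day 8. Every stage lay above the one before it without overlap, although the last step had no call (adjusted p = 0.0926). The transcript uc008wfa rose from 351, 665 and 583 to 2030, 1670 and 1260 at day 2 (3.15-fold, 1.65 ± 0.25, adjusted p = 0.000872) and stood at 3870, 4800 and 3700 at day 8. The day 2 rise of uc008bsv, from 2700, 3220 and 310 to 8090, 6170 and 5260, was called (2.20 ± 0.69, adjusted p = 0.0335), but proliferation array 3 lay far below the other two. That call was lost with the slide block (0.128), without the filter on dim probes (0.0724) and without any 1 of the day 2 arrays (0.0605 to 0.101), over a range of 0.00594 to 0.128.

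**Figure D3:**
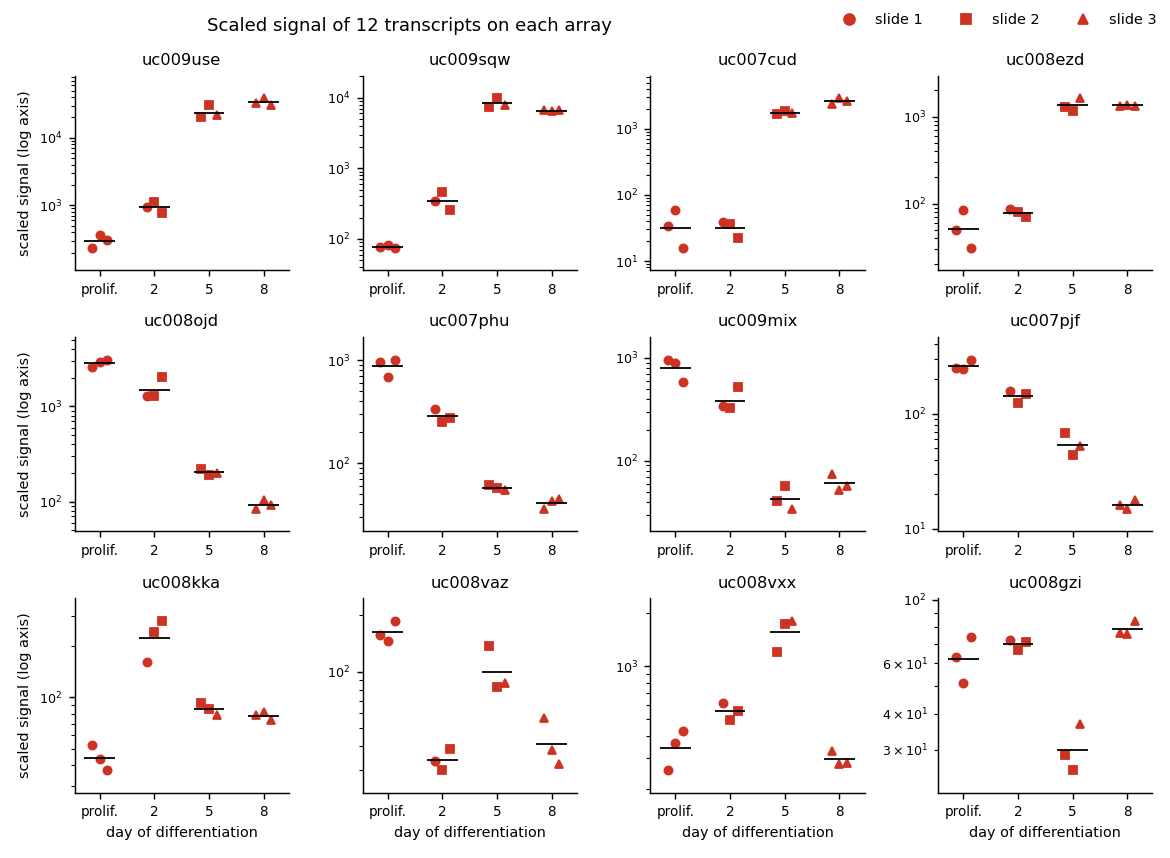
Scaled signal (y axes, log scale, a range of its own per panel) of 12 uc transcripts on each of the 12 arrays, by stage (x axes). Symbol shape gives the slide and the horizontal line the geometric mean of 3 arrays. The top row shows rises, the middle row falls and the bottom row transcripts that turned back, among them uc008kka, highest at day 2, and uc008gzi, lowest at day 5.

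Where a stage had 0 arrays with the transcript above background, only a bound can be given. It divides the mean at the brighter stage by, for each dim array, the higher of the lowest signal among detected probes and the probe's own signal. Among the called rises, 14 uc transcripts had such a baseline at proliferation against day 2, 36 against day 5 and 45 against day 8. The same was not counted over all tested probes, so these counts do not show whether uc transcripts differ from the rest. The transcript uc008fxu was at least 8.57-fold higher at day 5 and at least 12.5-fold higher at day 8 (adjusted p = 1.11e-06 and 3.69e-07). Its signals were 117, 170 and 128 at day 5 and 190, 189 and 220 at day 8, and it was on no array above background before. The transcript uc007eud was at least 7.95-fold higher at day 8 (109, 122 and 153, adjusted p = 1.13e-06), and uc008aiq at least 6.25-fold (94.4, 106 and 98.2, adjusted p = 2.39e-08). The transcript uc007eud also rose from day 5, where it read 30.9, 37.7 and 51.1, to day 8 (3.24-fold, adjusted p = 0.0179, a call lost in 4 of 21 alternatives, the slide block among them, over a range of 0.000599 to 0.172). At day 2 the largest bounds were small: uc008zjd at least 1.59-fold, uc009hqy at least 1.48-fold and uc007znn at least 1.43-fold. The day 2 call of uc008zjd (adjusted p = 0.0111) was lost with the slide block (0.0552, the highest over its alternatives, from 0.000893).

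The largest falls by day 8 were spread over the steps in different ways. The transcript uc008ojd read 2580, 2930 and 3110 at proliferation, 1290, 1290 and 2050 at day 2, 218, 191 and 202 at day 5 and 83.9, 103 and 91.7 at day 8. The 4 stages did not overlap, and all 3 steps were called. By day 8 it was 30.9-fold lower (a fall by 4.95 ± 0.18 on the log2 scale, adjusted p = 8.69e-09, a call kept in every alternative). Its last step was lost with the slide block and with normexp (0.0018 to 0.0909 over 22 alternatives). The transcript uc007phu fell from 950, 684 and 1010 through 333, 249 and 276 to 61, 57.1 and 55.3 at day 5 and 36.1, 43.1 and 44.7 at day 8, 21.1-fold in all (adjusted p = 1.25e-08). Again no stage overlapped the one before it, but the last step had no call (adjusted p = 0.0902). The transcript uc007pjf fell at every step, from 247, 246 and 295 through 157, 123 and 147 and 68.5, 43.9 and 52.3 to 16.2, 14.9 and 17.8 (16.1-fold, adjusted p = 2.48e-08). It fell by 0.89, then fell by 1.39 and then fell by 1.73 on the log2 scale. Its day 2 fall was lost with the slide block (0.0884, from 0.00201 over its alternatives) and its last fall with normexp (0.4, from 0.000238).

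Other falls had no call after day 5. The transcript uc009mix read 964, 898 and 581 at proliferation, 340, 323 and 520 at day 2, 41, 56.6 and 34 at day 5 and 73.6, 52.5 and 56.7 at day 8. It was 18.5-fold lower at day 5 than at proliferation (adjusted p = 4.68e-07), and its day 5 and day 8 values overlapped. Its day 2 fall, called at an adjusted p of 0.0142, was lost in 6 of 22 alternatives (0.00751 to 0.224). The transcript uc007mwe had no call at day 2 (99.8, 111 and 141 against 150, 110 and 160, overlapping) and then fell 6.81-fold to 19.9, 19.3 and 21.8 at day 5 (adjusted p = 1.09e-06), where it stayed within the spread at day 8 (19.5, 21.6 and 17.9). The transcript uc008wvu fell from 1290, 1190 and 1660 at day 2 to 259, 201 and 242 at day 5 (5.88-fold, adjusted p = 4.16e-05). The transcript uc007axg was 18.4-fold lower at day 5 than at proliferation (11.7, 11.1 and 24.2 against 450, 490 and 88.3, adjusted p = 0.000364), and at day 8 it was well above background on 1 of 3 arrays. Its day 8 signals of 7.44, 10.3 and 3.32 lay below those of day 5 without overlap, but that step had no call (adjusted p = 0.249).

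The falls called at day 2 were smaller than these. The transcript uc008gmk fell from 88.1, 353 and 278 to 41.7, 32 and 33.7 (5.77-fold, adjusted p = 0.00183, 0.000115 to 0.0441 over its alternatives), and uc008yhl from 312, 409 and 704 to 124, 64.5 and 61.3 (5.68-fold, adjusted p = 0.00158, 0.000725 to 0.0499). The highest of each range came from the slide block. In both, proliferation and day 2 did not overlap. The transcript uc007wrp read 5280, 3950 and 3250 at proliferation and 2550, 985 and 734 at day 2. Day 2 array 1, on the slide of the proliferation arrays, was the one nearest to them. Its fall by 1.74 ± 0.40 (log2, adjusted p = 0.00906) was a fall by 0.68 within that slide, with no call (adjusted p = 0.24, the highest over its alternatives, from 0.000959).

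Bounds on falls could be given for 0 uc transcripts at day 2, 6 at day 5 and 16 at day 8, again without a count over all tested probes. The transcript uc008elh, at 121, 136 and 163 at proliferation, was at least 14.9-fold lower at day 8, where no array showed it above background (adjusted p = 2.76e-07). The transcript uc007ecc was at least 12.1-fold lower (122, 109 and 109 before, adjusted p = 1.68e-08), and it passed through 23.8, 21.8 and 17.6 at day 5. Both kept the call in every alternative. The transcript uc008ojb was at least 7.18-fold lower at day 8 (adjusted p = 5.62e-05), a call lost with the slide block (0.128, from 6.33e-06 over its alternatives). At day 5, uc007ilu was at least 7.25-fold lower, uc007rtb at least 6.43-fold and uc007pee at least 4.55-fold. Their calls (adjusted p = 0.000761, 0.00255 and 6.5e-05) were lost with normexp (0.279, 0.0812 and 0.0987, the highest over their alternatives, from 0.000108, 0.000483 and 1.08e-05), and that of uc007rtb with the slide block too (0.0556).

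In the last step few transcripts moved far. The largest rises from day 5 to day 8 were those of uc008hhr, from 43.4, 43.3 and 62.6 to 253, 381 and 213 (5.59-fold, adjusted p = 0.0211), and uc008ppm, from 32.6, 44.7 and 42.5 to 168, 258 and 145 (4.66-fold, adjusted p = 0.0167). The stages did not overlap in either. Within slide 3 the changes were 2.13 and 2.12 on the log2 scale, but neither was called with the slide block (adjusted p = 0.198 and 0.159, the highest over their alternatives, from 0.00229 and 0.000823). The call of uc008hhr was lost in 7 of 21 alternatives, among them those without day 5 array 1 or 2 or day 8 array 1 or 2 (0.057 to 0.0749). That of uc008ppm was lost in 3, the others being those without day 5 array 1 (0.0662) or day 8 array 2 (0.0589). The transcript uc009aml fell from 55.4, 91.6 and 82.1 to 19.3, 22.2 and 22.9 (3.49-fold, adjusted p = 0.000764) and lost its call in 1 of 22 alternatives, normexp (0.224, from 0.000372).

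Some of the last falls rested on day 5 arrays 1 and 2. The transcript uc009mqg read 465, 470 and 112 on the day 5 arrays and 45.6, 83.8 and 81.7 at day 8, and uc009msc 146, 109 and 29.1 against 21.5, 23 and 24. In both the third day 5 array, on the slide of the day 8 arrays, lay nearer to day 8 than to its own stage. The falls by 2.10 ± 0.48 and 1.76 ± 0.50 (log2, adjusted p = 0.0204 and 0.0429) were falls by 0.72 and 0.35 with the slide block, with no call (adjusted p = 0.257 and 0.6, the highest over their alternatives, from 0.000872 and 0.00157). The call of uc009mqg was lost in 7 of 22 alternatives and that of uc009msc in 15. Both were lost without day 5 array 1 (0.0821 and 0.149) or 2 (0.0682 and 0.128), and neither without day 5 array 3.

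The timing of each transcript was summarised by its calls at the 3 steps, from proliferation to day 2, to day 5 and to day 8. Of the 2658 tested uc transcripts 1426 (53.6%, beside 47.5% of all tested probes) had no called step, 838 (31.5%) had 1, 337 (12.7%) had 2 and 57 (2.14%) had 3. The commonest courses were a rise by day 2 with no further call (229, 8.62%, beside 9.28% of all) and a fall from day 2 to day 5 alone (228, 8.58%, beside 8.59%). They were followed by a fall by day 2 alone (139, 5.23%, beside 6.47%), a rise from day 2 to day 5 alone (134, 5.04%, beside 5.9%), rises at both of the first steps (86, 3.24%, beside 3.62%) and a fall from day 5 to day 8 alone (73, 2.75%, beside 2.78%). With the slide block the first and the last of these numbered 152 and 8. Without day 5 array 3 the last numbered 274 of 3049 uc transcripts then tested, and without day 5 array 1 it numbered 16 of 2660. The first numbered 140 without proliferation array 1.

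**Figure D4:**
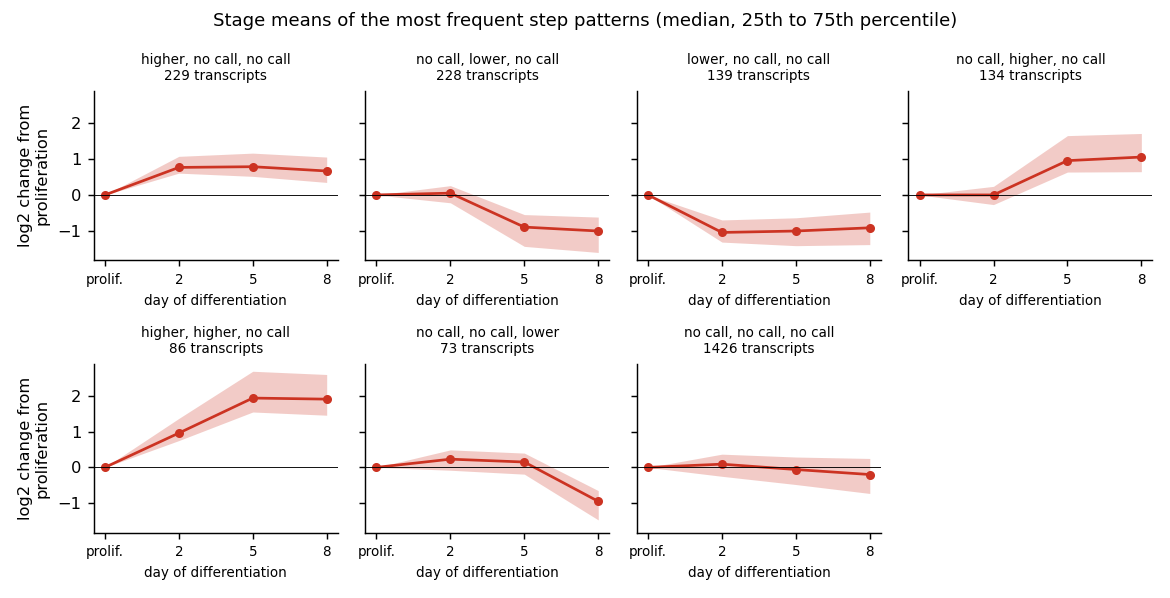
Log2 change of the stage means from proliferation (y axes) by day of differentiation (x axes) for the 6 commonest step patterns and the transcripts with no called step. Lines join the medians over the uc transcripts of a pattern, and the band runs from the 25th to the 75th percentile. The pattern fixes the direction of its steps; the transcripts that rose at both of the first steps reached a median of 1.94 at day 5 and 1.91 at day 8.

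Most early calls lasted. Of 441 uc transcripts higher at day 2, 313 were also called higher at day 5 and 289 at day 8, and 24 were called lower at day 8. Of 268 lower at day 2, 201 were also lower at day 5 and 171 at day 8, and 22 were called higher at day 8. Over all tested probes the corresponding figures were 3063, 2846 and 219 of 4241 and 1999, 1661 and 224 of 2805. The first call against proliferation came at day 2 for 709 uc transcripts (26.7%, beside 30.7% of all), at day 5 for 635 (23.9%, beside 24.6%) and at day 8 for 392 (14.7%, beside 13.1%). These counts share the proliferation arrays, and a lasting call therefore leans in part on the same baseline values.

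Among the 1638 uc transcripts with a call in the F test, the largest step lay between day 2 and day 5 for 684 (41.8%), before it for 605 (36.9%) and after it for 349 (21.3%). The shares over all called probes were 42.2%, 36.9% and 20.9%. The stage mean was highest at proliferation for 553 (33.8%), at day 2 for 425 (25.9%), at day 5 for 274 (16.7%) and at day 8 for 386 (23.6%), beside 33.1%, 24.2%, 16.7% and 26% of all. At day 2, 350 AK probes (10.2%) were called higher and 491 (14.3%) lower, and 441 (16.6%) and 268 (10.1%) of the uc probes, beside 18.5% and 12.2% of all tested probes. From day 2 to day 5, 535 AK probes (15.6%) rose and 273 (7.95%) fell, and 315 (11.9%) and 395 (14.9%) of the uc probes, beside 14.3% and 15.8% of all. The difference between these classes was not tested. AK probes were highest at day 2 in 17.2% of calls and lowest there in 25%, uc probes in 25.9% and 14.1%.

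Transient courses were few. A peak at day 2, called up and then down, was found for 76 uc transcripts (2.86%, beside 2.98% of all tested probes), a trough at day 2 for 50 (1.88%, beside 2.11%), a peak at day 5 for 24 (0.903%, beside 1.28%) and a trough at day 5 for 22 (0.828%, beside 1.11%). The transcript uc008kka read 52.6, 43.3 and 37.3 at proliferation, 162, 241 and 281 at day 2 and 92.3, 84.9 and 78.8 at day 5, up 5.06-fold (adjusted p = 3.53e-05) and then down 2.61-fold (adjusted p = 0.000362). Its day 2 arrays lay above all others. Both steps were called in every alternative. The 2 peaks with the largest smaller step, uc008eyb (38.1, 30.9 and 31.5 at day 2) and uc007zkl (39.8, 33.1 and 49.8), were near background elsewhere, with 1 of 3 proliferation arrays above it. Their falls from day 2 to day 5 (adjusted p = 0.00298 and 0.00152) were lost with normexp (0.0543 and 0.0891, the highest over their alternatives, from 0.000715 and 0.000917). With the slide block uc008eyb rose again from day 5 to day 8 (log2 1.43, adjusted p = 0.0181). In that fit it stood 2.25 above proliferation at day 8 and 2.11 above it at day 2, so day 2 was not its highest stage.

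A trough at day 2 was seen in uc008vaz. It read 158, 146 and 187 at proliferation, 33.4, 29.9 and 38.9 at day 2, 137, 82.7 and 87.5 at day 5 and 56.9, 38.1 and 32.1 at day 8. It fell 4.8-fold (adjusted p = 0.000133), rose 2.95-fold (0.000649) and fell again 2.43-fold (0.00975). The first of these steps was called in every alternative, the second was lost with normexp (0.0871, from 0.000255 over its alternatives), and the third with both normexp and the slide block (0.0062 to 0.391). The transcript uc007ojn also met the rule, at 52.5, 113 and 222, then 45.2, 13.6 and 13.6, then 56.1, 90.9 and 78.5, and 301, 337 and 313 at day 8. Day 2 array 1, on the slide of the proliferation arrays, lay close to the lowest of them, and with the slide block its fall at day 2 had no call (adjusted p = 0.183, the highest over its alternatives, from 0.00264). Its rises at the later steps were lost in 6 and 8 of 22 alternatives (0.00476 to 0.0857 and 0.00531 to 0.115).

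A peak at day 5 was seen in uc008vxx. It rose from 257, 367 and 428 through 619, 494 and 559 to 1200, 1740 and 1810 and returned to 332, 277 and 281 at day 8. The last fall was 5.27-fold (adjusted p = 0.000288, 0.000126 to 0.00636 over its alternatives), and day 8 did not differ from proliferation beyond the spread (-0.22 ± 0.22, adjusted p = 0.417). Its first rise, 1.62-fold (adjusted p = 0.0329), was lost in 9 of 22 alternatives (0.0198 to 0.359). The transcript uc007mjc, above background only from day 5, went from 148, 133 and 130 at day 5 to 45.7, 44.1 and 37 at day 8 (3.25-fold lower, adjusted p = 0.0308), a call lost with the slide block (0.144, the highest over its alternatives, from 9.59e-05), without the filter on dim probes (0.0748) and without day 5 array 1 or 2 or any 1 day 8 array (0.0718 to 0.0976). The fall of uc009sua, from 293, 295 and 68.3 to 65.9, 42.9 and 56.6, was called (adjusted p = 0.0465) but rested on the first 2 day 5 arrays. It was lost in 16 of 21 alternatives, among them the slide block (0.678, from 0.00188 over its alternatives). A trough at day 5 was seen in uc008gzi, at 72.1, 66.9 and 71.3 on day 2, 28.7, 25.5 and 36.8 on day 5 and 76.6, 75.7 and 84.4 on day 8 (down 2.34-fold, adjusted p = 0.000269, and up 2.63-fold, adjusted p = 0.00115), with both steps called in every alternative. In uc008xoi the same course ran from 32.4, 22.7 and 42.8 to 8.57, 7.41 and 11 and back to 24.6, 33.3 and 22.5, near background at day 5, and both steps lost their calls with normexp (0.103 and 0.116, over ranges of 0.000449 to 0.103 and 0.00634 to 0.129).

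The step patterns of 6 known muscle, cell cycle and inhibitor genes were set beside these courses. Myog encodes myogenin, a transcription factor of late muscle differentiation. It was called up, up and down, as were 14 uc transcripts (0.527%, beside 0.749% of all tested probes), uc008vxx among them. Embryonic myosin heavy chain (Myh3) and Ckm were called up, up and then not called, as were 86 uc transcripts, among them uc009use and uc009sqw. Myh3 read 174, 158 and 129 at proliferation and 50800, 51600 and 57300 at day 8. The replication factor Mcm3 and the kinetochore motor Cenpe were called down, down and then not called, as were 47 uc transcripts (1.77%, beside 2.04%), uc007phu and uc009mix among them. The inhibitor of differentiation Id2 was called down, up and up, as were 6 uc transcripts (0.226%, beside 0.423%). A shared pattern of calls says nothing of shared function or control.

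The uc probes lay mostly in the lower quartiles of signal, which says nothing of transcript levels, since probes bind with different strength. With the 22955 tested probes divided into quartiles of mean signal, the dimmest quartile held 37.4% of the uc probes and the brightest 13.9%, against 18.5% and 30.4% of mRNA probes and 44% and 9.32% of AK probes. From the dimmest to the brightest quartile the median SD within stages of uc probes was 0.453, 0.289, 0.227 and 0.17 on the log2 scale. The F test called 55.5%, 64.9%, 68.3% and 62.1% of the uc probes in the same order, beside 57.3%, 68.1%, 71.1% and 66.8% of all tested probes and 63.1%, 71.4%, 71.5% and 67.4% of mRNA probes. In each quartile the uc share was below the mRNA share, by a difference that was not tested. At day 8 the dimmest quartile held 178 higher and 301 lower uc calls (17.9% and 30.3%, beside 17.8% and 30.1% of all tested probes there). The brightest held 95 and 101 (25.7% and 27.4%, beside 27.4% and 27.2%). Among uc probes detected on all 12 arrays 63.5% were called, beside 67.1% of all such probes.

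**Figure D5:**
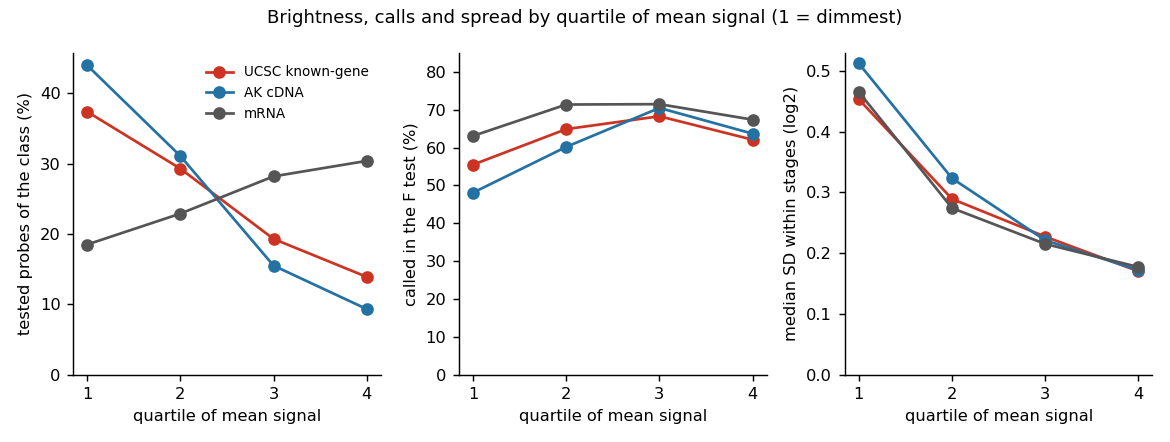
Tested uc, AK and mRNA probes by quartile of mean signal over all 12 arrays (x axes, 1 the dimmest). The panels show the percent of each class in the quartile, the percent called in the F test and the median SD within stages on the log2 scale. The uc probes fall from 37.4% to 13.9% of their class across the quartiles, and their SD from 0.453 to 0.17.

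The 3 uc probes with the highest signal had no called step. The brightest, uc008tos, ran from 416000, 593000 and 664000 at proliferation to 572000, 402000 and 516000 at day 8, and the lowest and highest of all its arrays were 402000 and 759000. The F test gave an adjusted p of 0.0585 for it and of 0.129 for uc007vhv, whose arrays lay between 362000 and 637000. The third, uc009ibu, passed the F test (adjusted p = 0.0409) with no call in any of the 5 comparisons. Its day 8 change of -0.47 (adjusted p = 0.0699) was called without proliferation array 1 (-0.61, adjusted p = 0.0356; up to 0.796 over its alternatives) and with the percentile taken over probes detected on all arrays (-0.49, adjusted p = 0.0435).

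At the other end, 148 of the 2046 uc transcripts detected on all 12 arrays had an F test adjusted p above 0.5. The same was not counted over all tested probes, so this does not show whether uc transcripts differ from the rest. Of the 148, the 3 with the smallest range of stage means were uc007hkd, uc009cbo and uc009njl. The transcript uc007hkd read 421, 503 and 627 at proliferation, 469, 502 and 557 at day 2, 526, 430 and 616 at day 5 and 503, 480 and 559 at day 8, and all stages overlapped. Its day 8 change was 0.01 ± 0.18 on the log2 scale. With the slide block it was -0.54 ± 0.40, with no call (adjusted p = 0.414, the lowest over its alternatives). The arrays of uc009njl lay between 5230 and 8030. Its day 8 change, -0.07 ± 0.19, became -0.63 and was called with normexp (adjusted p = 0.0229, the lowest over its alternatives, up to 0.973).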

How the data were processed

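RNA of 12 arrays, 3 for each of 4 stages, was compared. The deposited files hold 1 scanned array each. Per the submitters' processing notes, Agilent Feature Extraction 10.5.1.1 was used. The value used is the processed green signal, an intensity in scanner units that this software background-treated, per the file headers; the deposited flag columns (other, 0 or 1 per spot) mark detection, outliers and non-uniform spots. The headers record no scaling across arrays.

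Here the 1417 control and 200 negative spots and population-outlier spots were left out, which left 37831 spots of 37246 probes. Spots flagged as non-uniform were kept. After log2 conversion the spots of each probe were averaged, and each array's 75th percentile (1294 to 1994) was subtracted. Stages were compared with limma 3.58.1 (lmFit and eBayes, R 4.3.3) in 1 fit over all 12 arrays, with Benjamini-Hochberg adjustment over all 22955 tested probes. Per-array shares were compared by exact permutation of 369600 stage and 34650 slide assignments; 3 arrays against 3 could not go below p = 0.1. The fit was tested on simulated data. Tables and plots used the R package data.table (1.17.8), pandas 2.3.3 and matplotlib 3.10.9 (Python 3.11.15). The number of arrays limits the precision.

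Alternatives covered background correction, scaling, filters, non-uniform spots, slide and replicate blocks, thresholds and each array left out. The files used here held no mean-signal column, so normexp (offset 50) used the median signal. Transcripts were named by rule: the 3 largest called rises and falls per comparison among probes detected on all 6 arrays with stages apart, the 3 largest bounds, the 3 brightest, the 3 steadiest, and 2 per common step pattern and transient course. A rule for accessions with several probes found none. The members, lists and rules were chosen with earlier results of these data known.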

Additional observations from a re-analysis of the deposited data

How the results depend on the processing

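All counts here are of uc transcripts, called higher and lower unless stated otherwise. Apart from the slide block and the 2-fold threshold, calls in these settings were not counted over all tested probes. Such counts do not show whether uc transcripts differ from the rest. The median log2 change at day 2 was 0.27 over uc and 0.20 over all tested probes with normexp. Without non-uniform spots it was 0.77 and 0.74. Quantile normalization, the percentile over probes detected on all arrays, the filter on all 12 arrays, the replicate block and a common floor, the last chosen after the data were seen, kept every count within 1.5 times its value. The replicate block gave 406 and 259 at day 2, 573 and 586 at day 5, 612 and 778 at day 8, 316 and 373 from day 2 to day 5, 105 and 134 from day 5 to day 8, and 1588 in the F test. The labels do not say whether equal replicate numbers mark paired cultures. Deviations of same-numbered arrays of different stages correlated at -0.155 to 0.243 (median 0.00532), and 5 of 18 pairs were above 0.1. Those of differently numbered arrays ran from -0.264 to 0.222 (median -0.0138), with 6 of 36 above 0.1. These values cannot exclude pairing. Normexp gave 715 higher at day 2, 370 lower at day 5, 409 lower at day 8, 192 and 248 in the middle step and 60 lower in the last. Its courses numbered 528 up by day 2 alone, 128 down and 71 up in the middle step alone and 25 down in the last alone. It put the largest step in the middle for 438 and last for 230, and the highest mean at proliferation for 310. Without the filter on dim probes all 5221 uc probes were tested, among 37246, and the signal quartiles were drawn anew over these. The last step then gave 46 and 76, 4251 of the 5221 had no called step, 44 fell in the last step alone, and quartiles 1, 3 and 4 held 94, 675 and 346 calls. Without non-uniform spots 2196 uc probes were tested, whichever spots gave the percentile. With the percentile from the spots kept, the counts were 710 and 19 at day 2, 81 lower at day 5, 165 lower at day 8, 157 and 114 in the middle step and 16 and 47 in the last. The courses then numbered 589 up and 10 down by day 2 alone, 78 up and 66 down in the middle step alone and 22 down in the last alone. The largest step was the middle for 294 and the last for 169, 64 were highest at proliferation, and quartiles 3 and 4 held 225 and 117 calls. With those spots left out but the percentile from all spots, they were 280 and 134 at day 2, 385 and 371 at day 5, 199 and 259 in the middle step, 91 lower in the last and 1091 in the F test. There 70 fell by day 2 alone, 52 rose at both of the first steps and 47 fell in the last alone. The largest step was the first for 385 and the middle for 450, the highest mean was at proliferation for 343 and at day 5 for 164, and quartile 4 held 115 calls. The slide block gave 247 and 134 at day 2, 298 and 225 at day 5, 237 and 149 at day 8, 262 lower in the middle step, 52 and 30 in the last and 739 in the F test. It left 152 up by day 2 alone and 8 down in the last step alone, the largest step was the first for 260, the middle for 376 and the last for 103, and the highest mean fell on the 4 stages in turn for 203, 192, 143 and 201. Its quartiles held 257, 245, 161 and 76. Requiring 2-fold left 155 and 121 at day 2, 308 and 339 at day 5, 349 and 478 at day 8, 155 and 188 in the middle step and 37 and 71 in the last. At an adjusted p under 0.01, 135 rose and 87 fell by day 2 alone and 11 fell in the last step alone. Leaving out 1 array passed 2660 to 3049 uc probes through the filter. It gave 51 to 131 higher and 44 to 421 lower in the last step, 140 to 253 up by day 2 alone, 16 to 274 down in the last step alone, 268 to 629 with the largest step last, and 237 to 509 highest at day 5. The stage p of the median signal, by exact permutation test, then ran from 0.00935 to 0.0759. Where no value shows it, the cause of these shifts was not tested. Of the transcripts named, 2 changes with a call in the main or the alternative fit turned sign. That of uc008elh from day 5 to day 8 was 0.05 with normexp, and that of uc008vaz from proliferation to day 5 was 0.32 without non-uniform spots. Sign changes without a call in either fit, such as that of uc007hkd at day 8 with the slide block, are not counted here. The number of arrays limits the precision, and probes near background had the widest spread.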
